A study of Mus musculus with 2 samples.

Results

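Aminoacyl-tRNA synthetases are the enzymes that join each amino acid to its transfer RNA. With earlier results of these data known, this group was set by a list of 36 gene symbols and not by a cut-off on values. Of these, 35 were analysed, among 13326 gene symbols in all, namely 20 cytosolic enzymes and 15 of the 16 mitochondrial enzymes, whose symbols end in 2. Mars2 was not analysed here. Liver RNA came from male Adipoq-/- (knockout, KO) mice, which lack the gene for the adipocyte hormone adiponectin, and from male wild-type (WT) mice. Both groups were of the C57BL/6J strain, 12 weeks old and fasted overnight. For each genotype, RNA of 9 to 10 mice was pooled and sequenced as 1 library. There was therefore no replicate, no test across samples and no measure of the spread between animals, and every comparison below is between a pair of libraries.

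Charging is the step at which the genetic code is read by proteins, and each synthetase recognises 1 amino acid and its transfer RNAs. Cytosolic and mitochondrial protein synthesis mostly use separate enzymes, all encoded in the nucleus, whereas Gars and Kars each encode both forms. Synthetases fall into classes I and II by the fold of the catalytic domain. In mammals several cytosolic enzymes sit in a multi-synthetase complex held together by scaffold proteins. Uncharged transfer RNA activates the kinase GCN2 (Eif2ak4), which leads to translation of the transcription factor ATF4, and many cytosolic synthetase genes are known ATF4 targets. The liver makes most plasma proteins and so charges large amounts of transfer RNA.

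The transcripts differed little between the libraries. No member was 1.5-fold apart, in either direction, when ratios were taken relative to all genes, of which 9.34% were. Threonyl-tRNA synthetase (Tars) and cysteinyl-tRNA synthetase (Cars) were the lowest cytosolic members in the knockout library, and arginyl-tRNA synthetase 2 (Rars2) the lowest mitochondrial one. Prolyl-tRNA synthetase 2 (Pars2) and asparaginyl-tRNA synthetase 2 (Nars2) were the highest. In bulk tissue, fewer cells of a type and less RNA per cell cannot be told apart.

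Some cytosolic promoters carried the 8-base core of the amino acid response element, the site bound by ATF4 with C/EBP partners. The search covered 250 bases before to 50 bases after each RefSeq start site (GRCm38.p6) on both strands, for TGATGNAA and for its most specific form TGATGCAA. TGATGNAA was present in the promoters of 5 of 13 cytosolic members that matched the RefSeq table, namely Aars, Gars, Iars, Tars and Yars, and in 0 of 13 mitochondrial members. It was present for 4.51% of all 27025 genes with a promoter and for 2.68% of the 7917 that also had a ratio in these libraries. TGATGCAA was present in 4 of 13 cytosolic members, against 1.03% of all genes. The sites are shown because they mark the cytosolic genes whose ratios could be set beside those without a match, with capitals for the 8-base match and each line read in the direction of TGATGNAA:
Tars, chr15:11399650-11399689, plus strand: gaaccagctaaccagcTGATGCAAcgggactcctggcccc
Yars, chr4:129189890-129189929, plus strand: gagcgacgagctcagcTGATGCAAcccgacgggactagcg
Aars, chr8:111033714-111033753, minus strand: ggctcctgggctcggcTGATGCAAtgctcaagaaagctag
Iars, chr13:49682121-49682160, minus strand: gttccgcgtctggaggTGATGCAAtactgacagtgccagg
Gars, chr6:55037955-55037994, minus strand: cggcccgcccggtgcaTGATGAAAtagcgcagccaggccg

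The Aars match lay 112 bases before the start site, the Gars match 30 and the Tars match 15 bases before it. Those of Yars and Iars lay 3 and 7 bases after it, and Aars held another TGATGNAA match 9 bases after its start. A match describes these letters only and does not show binding.

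The values are FPKM as deposited (fragment numbers divided by transcript length and library size), which allow levels to be compared between genes. Summed FPKM came to 891964 in the knockout and 798170 in the wild-type library. For each of the 11985 genes that reached 1 FPKM in either library, 1 FPKM was added to both values and the log2 of knockout over wild type was taken. Their median was -0.15, and a relative log2 ratio below is a gene's ratio minus that median. Other scalings shift all genes together, to an all-gene median between -0.28 (equal summed FPKM) and -0.09 (equal upper quartiles), so the ratios below are relative to other genes and not absolute directions. Hepatocyte markers were abundant, with albumin (Alb) at 14031 FPKM in the knockout and 17522 FPKM in the wild-type library. All 8 hepatocyte markers lay within 1.5-fold, where 9.34% of all genes were further apart. The 8 Kupffer cell markers summed to 169.6 FPKM in the knockout and 163 FPKM in the wild-type library, and 7 of them lay above the all-gene median. Their list median of the relative log2 ratio was 0.29, and 0.13 after the correction for transcript length described below. Before that correction only Marco was at least 1.5-fold higher, where 6.73% of all genes were. After it Marco (1.24) and Emr1 (0.60) were, where 2.97% of all genes were. Marco stood at 3.72 FPKM in the knockout and 1.26 FPKM in the wild-type library (1.21). Of 10 pancreatic acinar markers 3 were analysed. Cela1, which encodes an elastase, stood at 56.9 FPKM in the knockout and 28.5 FPKM in the wild-type library. Cela2a stood at 1.96 FPKM in KO and 0.517 FPKM in WT. The amylase gene Amy2a5, under 2 FPKM in both, went the other way and was lower in the knockout library (relative log2 ratio -0.15). Of 8 lymphocyte markers 2 were analysed. Igj was at least 1.5-fold higher, as were 6.73% of all genes, at 2.81 FPKM in the knockout and 1.69 FPKM in the wild-type library (0.66). Cd79a was under 1 FPKM in both, at 0.712 FPKM in KO and 0.982 FPKM in WT. The part of these markers in the ratios below was not tested.

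**Figure D1:**
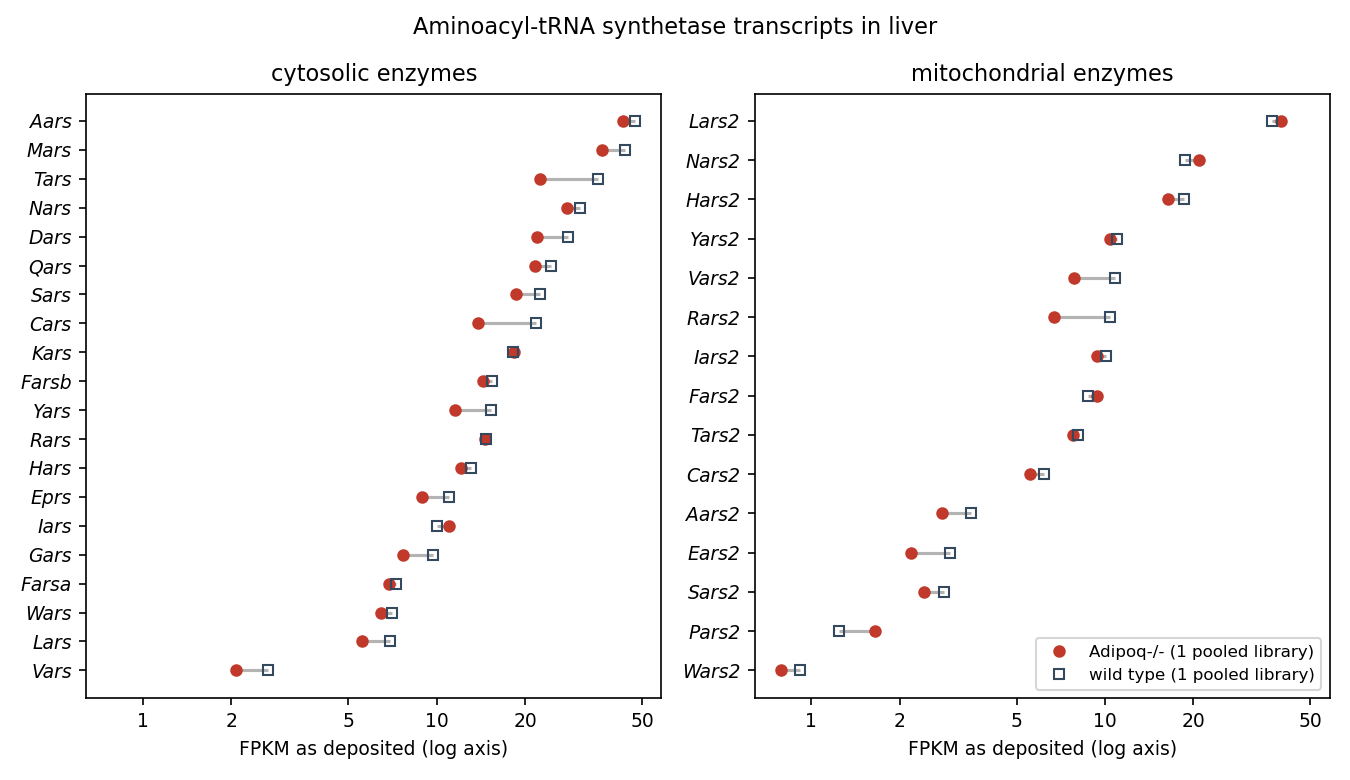
FPKM as deposited (log axis) of 20 cytosolic and 15 mitochondrial enzymes in the Adipoq-/- library (filled circles) and the wild-type library (open squares), 1 pooled library each. Levels run between 0.789 and 47.4 FPKM, the order of genes is nearly the same in both libraries, and the widest gaps are those of Tars, Cars and Rars2.

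Cytosolic enzymes were expressed at moderate levels. They ranged between 2.07 and 43.1 FPKM in the knockout library (median 14.1) and between 2.66 and 47.4 FPKM in the wild-type library (median 15.4). The most abundant was alanyl-tRNA synthetase (Aars), followed by methionyl-tRNA synthetase (Mars), in both libraries. Valyl-tRNA synthetase (Vars) was the least abundant in both. Without replicates, neighbours in this order cannot be separated.

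As deposited, 18 of 20 cytosolic members were lower in the knockout library, and 66.9% of all 11985 genes were lower on that scale. Relative to the all-gene median, 11 of 20 lay below and 9 above. The group's median relative log2 ratio was -0.06, against 0.00 for all genes by construction. At least 1.5-fold lower were 0 of 20 members, where 2.61% of all genes passed that fold, and at least 1.5-fold higher were 0 of 20, where 6.73% did. With a smaller limit, a relative log2 ratio of 0.32 in size, 2 cytosolic members counted as lower, against 11.7% of all genes, and 0 as higher, against 19.8%. Without centring, 2 cytosolic members, Tars and Cars, were at least 1.5-fold lower as deposited, where 6.17% of all genes were.

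Tars, which charges threonine, stood at 22.5 FPKM in the knockout and 35.3 FPKM in the wild-type library. Its relative log2 ratio was -0.48, and 4.71% of all genes had a lower one. Cars, which charges cysteine, stood at 13.8 FPKM in the knockout and 21.8 FPKM in the wild-type library (relative log2 ratio -0.47, with 4.86% of genes lower). As deposited these were 36.2% and 36.6% below the wild-type library. They stand apart from the other 18 cytosolic members, of which the next was tyrosyl-tRNA synthetase (Yars) at 11.5 FPKM in the knockout and 15.3 FPKM in the wild-type library (-0.23).

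Enzymes close to the all-gene median included the most abundant ones. Aars was 43.1 FPKM in the knockout and 47.4 FPKM in the wild-type library (0.01), and Mars 36.6 FPKM in KO and 43.6 FPKM in WT (-0.10). The asparagine enzyme Nars was 27.7 FPKM in the knockout and 30.7 FPKM in the wild-type library (0.01). The histidine enzyme Hars was 12.1 FPKM in KO and 13.1 FPKM in WT (0.04). The tryptophan enzyme Wars, known as an interferon-gamma-inducible gene, was 6.49 FPKM in the knockout and 7.06 FPKM in the wild-type library (0.05).

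Phenylalanyl-tRNA synthetase is built from alpha and beta subunits in equal number, encoded by Farsa and Farsb. Farsa was 6.86 FPKM in the knockout and 7.28 FPKM in the wild-type library (0.08), and Farsb 14.4 FPKM in KO and 15.4 FPKM in WT (0.06). The ratio of Farsb to Farsa FPKM was 2.11 in the knockout and 2.12 in the wild-type library. The relation between these subunit transcripts was thus nearly identical in the pair of libraries.

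Among the 8 enzymes of the multi-synthetase complex the relative log2 ratios ran between -0.19 and 0.27, with a median of -0.06. The aspartate enzyme Dars was 21.9 FPKM in the knockout and 28.0 FPKM in the wild-type library (-0.19), and the fused glutamate and proline enzyme Eprs 8.89 FPKM in KO and 11.0 FPKM in WT (-0.13). The leucine enzyme Lars, also a leucine sensor of the mTORC1 pathway, was 5.58 FPKM in the knockout and 6.92 FPKM in the wild-type library (-0.12). The glutamine enzyme Qars was 21.6 FPKM in KO and 24.5 FPKM in WT (-0.02). Rars, for arginine, was 14.6 FPKM in the knockout and 14.7 FPKM in the wild-type library (0.14), and the lysine enzyme Kars 18.3 FPKM in KO and 18.2 FPKM in WT (0.16). Iars, for isoleucine, was the highest cytosolic member relative to all genes, at 11.0 FPKM in the knockout and 10.0 FPKM in the wild-type library (0.27). The 12 cytosolic members outside the complex had a median of -0.05.

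The remaining cytosolic members were the glycine enzyme Gars (7.7 FPKM in the knockout and 9.75 FPKM in the wild-type library, -0.15), the serine enzyme Sars (18.6 FPKM in KO and 22.4 FPKM in WT, -0.11) and Vars (2.07 FPKM in KO and 2.66 FPKM in WT, -0.10). By class, the 9 class I enzymes had a median relative log2 ratio of -0.10 and the 10 class II enzymes one of 0.01, Eprs being left out because it joins both classes. Each class held 1 of the pair that stood apart, Cars in class I and Tars in class II.

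The 5 cytosolic genes with a TGATGNAA match had relative log2 ratios between -0.48 (Tars) and 0.27 (Iars), with a median of -0.15 and 3 below the all-gene median. The 8 without a match ran between -0.19 and 0.16, with a median of -0.06 and 5 below the all-gene median. The genes with a match therefore included both the lowest and the highest cytosolic ratio. The other low member, Cars, was not among the promoters searched.

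**Figure D2:**
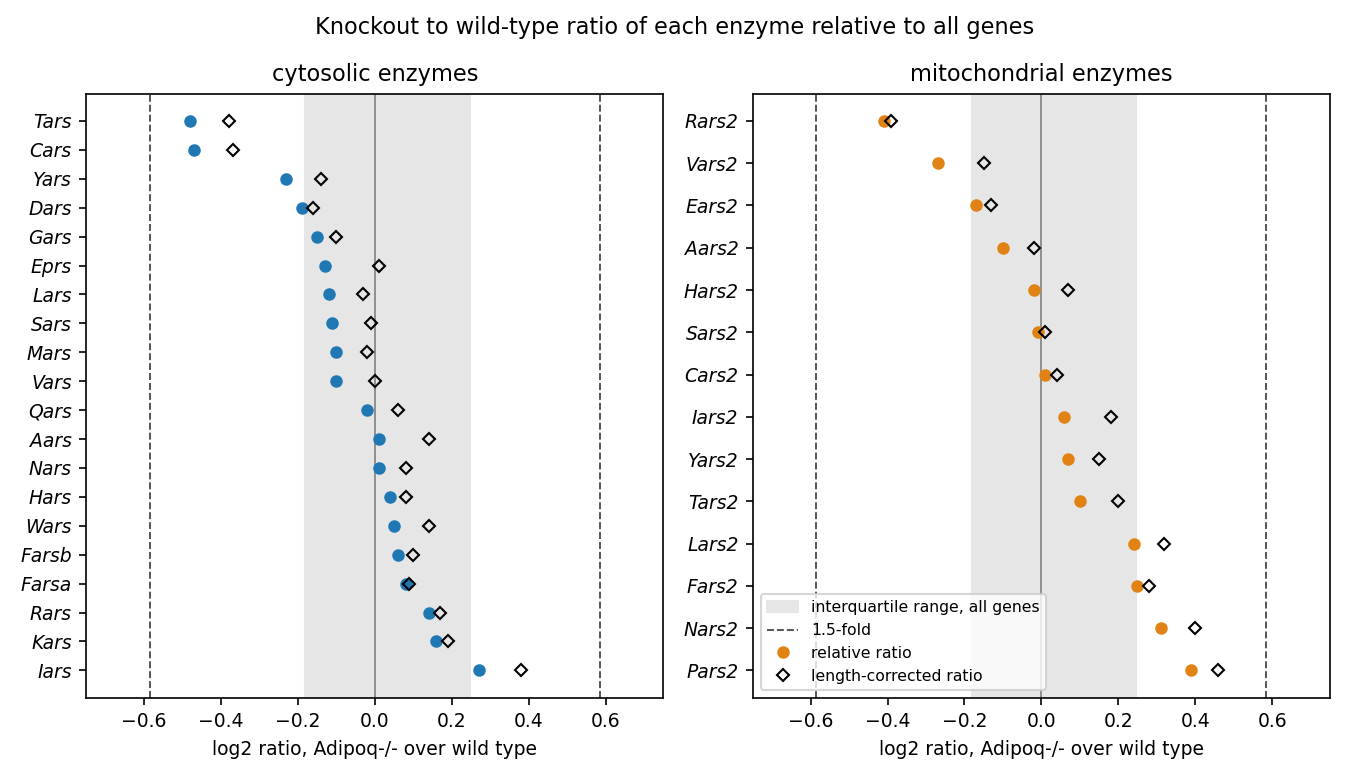
Relative log2 ratio of knockout to wild type for each cytosolic (left) and mitochondrial (right) enzyme, with the length-corrected ratio as an open diamond. The shaded band is the interquartile range of all genes and dashed lines mark 1.5-fold; all 34 enzymes with a ratio lie between the dashed lines, with Tars (-0.48), Cars (-0.47) and Rars2 (-0.41) at the low end and Pars2 (0.39) at the high end.

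Mitochondrial enzymes were mostly less abundant. They ranged between 0.789 and 39.6 FPKM in the knockout library (median 7.79) and between 0.92 and 37.1 FPKM in the wild-type library (median 8.73). The tryptophan enzyme Wars2, at 0.789 FPKM in the knockout and 0.92 FPKM in the wild-type library, was under 1 FPKM in both and has no ratio. Of the 15 analysed, 11 were lower in the knockout library as deposited, where 66.9% of all genes were. Of the 14 with a ratio, 6 lay below and 8 above the all-gene median, and the group's median was 0.04. At least 1.5-fold lower were 0 of 14, against 2.61% of all genes, and at least 1.5-fold higher 0 of 14, against 6.73%. At the smaller limit of 0.32, 1 was lower, against 11.7% of all genes, and 1 higher, against 19.8%.

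Rars2 stood at 6.72 FPKM in the knockout and 10.4 FPKM in the wild-type library. Its relative log2 ratio of -0.41 had 7.11% of all genes below it. Vars2 (valine) was 7.87 FPKM in the knockout and 10.8 FPKM in the wild-type library (-0.27). The glutamate enzyme Ears2 was 2.18 FPKM in KO and 2.96 FPKM in WT (-0.17), and Aars2 2.78 FPKM in KO and 3.51 FPKM in WT (-0.10).

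Leucyl-tRNA synthetase 2 (Lars2) was the most abundant mitochondrial member in both libraries, at 39.6 FPKM in the knockout and 37.1 FPKM in the wild-type library (0.24). Nars2 was 20.9 FPKM in the knockout and 18.7 FPKM in the wild-type library (0.31), and Pars2, a rare transcript, 1.65 FPKM in KO and 1.24 FPKM in WT (0.39). The phenylalanine enzyme Fars2, which works as a single chain, was 9.42 FPKM in KO and 8.73 FPKM in WT (0.25). The largest positive ratio, that of Pars2, belongs to a low transcript, for which the added 1 FPKM shrinks the ratio.

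Between these ends lay Hars2 (16.4 FPKM in the knockout and 18.5 FPKM in the wild-type library, -0.02), Sars2 (2.42 FPKM in KO and 2.83 FPKM in WT, -0.01), Cars2 (5.55 FPKM in KO and 6.20 FPKM in WT, 0.01) and Iars2 (9.40 FPKM in KO and 10.1 FPKM in WT, 0.06). Yars2 was 10.4 FPKM in the knockout and 11.0 FPKM in the wild-type library (0.07), and Tars2 7.79 FPKM in KO and 8.12 FPKM in WT (0.10). These 6 were all lower in the knockout as deposited, by up to 14.6%, and all close to the median of other genes.

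**Figure D3:**
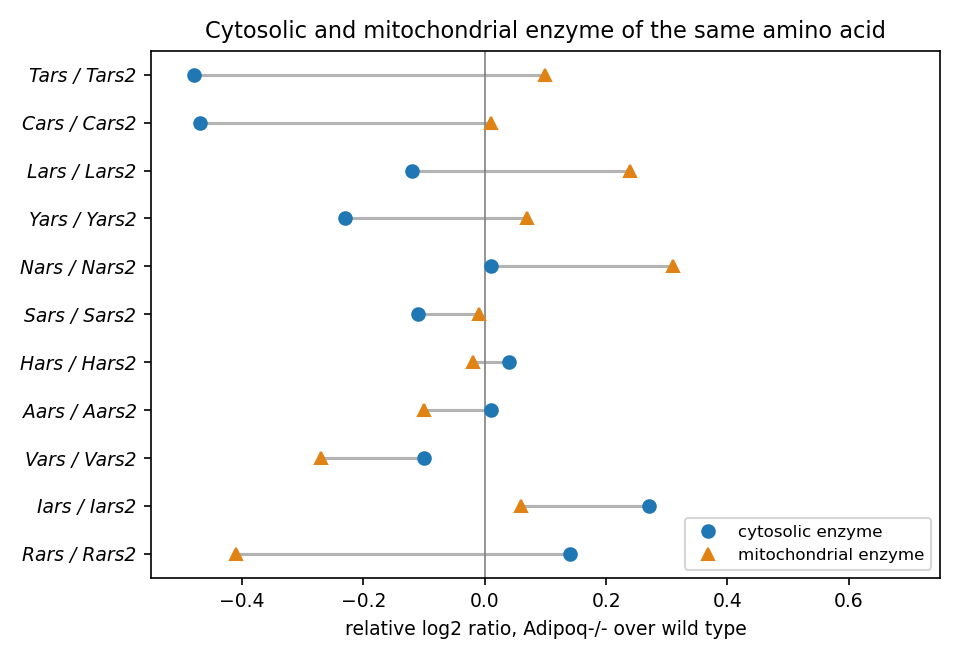
Relative log2 ratio of the cytosolic enzyme (circles) and the mitochondrial enzyme (triangles) for 11 amino acids, joined by a line. The wide lines of Tars and Tars2, Cars and Cars2, and Rars and Rars2 show that the low ratios belong to 1 enzyme of each pair.

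For 11 amino acids both a cytosolic and a mitochondrial enzyme had a ratio. The mitochondrial enzyme had the higher ratio in 6 pairs and the cytosolic one in 5, and in 7 pairs they lay on opposite sides of the all-gene median. For threonine, Tars lay at -0.48 and Tars2 at 0.10. For cysteine, Cars lay at -0.47 and Cars2 at 0.01. For arginine the order was the reverse, with Rars at 0.14 and Rars2 at -0.41. The low ratios of Tars, Cars and Rars2 were thus not shared by the other enzyme of the pair. Across the 11 pairs, Pearson's r was -0.23 and Spearman's rho -0.42, given as a description since all pairs share the same libraries.

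The level of the mitochondrial enzyme as a percentage of the cytosolic one spanned a wide range. Aars2 stood at 6.45% of Aars in the knockout and 7.40% in the wild-type library, whereas Lars2 stood at 710% of Lars in the knockout and 536% in the wild-type library. Tars2 was 34.6% of Tars in the knockout and 23.0% in the wild-type library. Rars2 was 45.9% of Rars in the knockout and 70.4% in the wild-type library. Cytosolic enzymes were thus not always the more abundant ones, since Hars2, Lars2 and Vars2 exceeded Hars, Lars and Vars in both libraries.

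Summed over members, cytosolic enzymes came to 325 FPKM in the knockout and 385 FPKM in the wild-type library. Mitochondrial enzymes came to 144 FPKM in the knockout and 151 FPKM in the wild-type library. The interquartile range of the 34 relative log2 ratios was 0.20, against 0.43 for all genes and 0.41 for the 5164 genes with a mean of 5 to 50 FPKM. Of those 5164 genes, 8% were at least 1.5-fold apart in either direction.

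**Figure D4:**
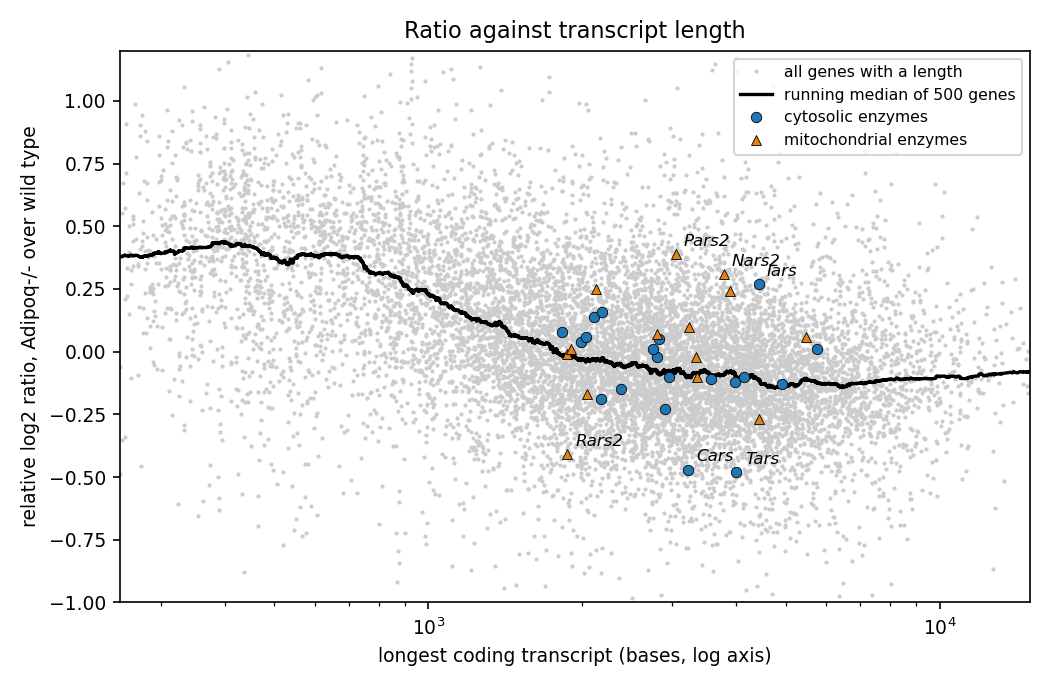
Relative log2 ratio against the length of the longest coding transcript (log axis) for all genes with a length (grey), cytosolic enzymes (circles) and mitochondrial enzymes (triangles), with the running median of 500 genes in black. The median declines with length up to about the length of the synthetase transcripts, and most enzymes lie close to the line; genes with ratios beyond the axis are not shown.

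Ratios moved with transcript length across the libraries. With genes sorted by length into 10 equal bins, the median relative log2 ratio was 0.40 in the bin of shortest and -0.12 in that of longest transcripts, with a Spearman rho of -0.44 across 11571 genes, which are not independent replicates. Synthetase transcripts were longer than most, with a median of 2936 bases against 2449 for all genes. Set against the running median of genes of like length, the cytosolic median was 0.04 and the mitochondrial median 0.11, and 12 of 34 members lay below 0. Tars (-0.38), Cars (-0.37) and Rars2 (-0.39) had the lowest corrected log2 ratios and Pars2 (0.46), Nars2 (0.40) and Iars (0.38) the highest. No member was 1.5-fold apart on that scale, where 2.71% of all genes were lower and 2.97% higher by that fold.

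Some members share exon sequence with a neighbouring gene in the GENCODE M21 annotation, and whether counting used strand is not stated in the sources used here. Iars2 shares 2034 exon bases with Rab3gap2 on the opposite strand, which was 1.64 FPKM in the knockout and 1.87 FPKM in the wild-type library. Fars2 shares 501 with Nrn1 on the opposite strand, at 149 FPKM in the knockout and 153 FPKM in the wild-type library. Aars, the most abundant member, shares 1326 exon bases with Exosc6 on the same strand, which strand-aware counting could not separate either, and Exosc6 was not analysed here. Cars2 shares 422 bases with Naxd, Farsb 248 with Sgpp2, Fars2 a further 115 with Lyrm4 and Ears2 89 with Ubfd1, all on the opposite strand. Hars and Hars2 share 195 bases with each other and Yars 30 bases with C77080, also on opposite strands. Mars shares 68 bases with Ddit3, the gene for the stress factor CHOP, at 7.19 FPKM in the knockout and 8.80 FPKM in the wild-type library. The values of these members are uncertain to that extent, whereas Tars, Cars and Rars2 share no exon bases with another coding gene there.

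**Figure D5:**
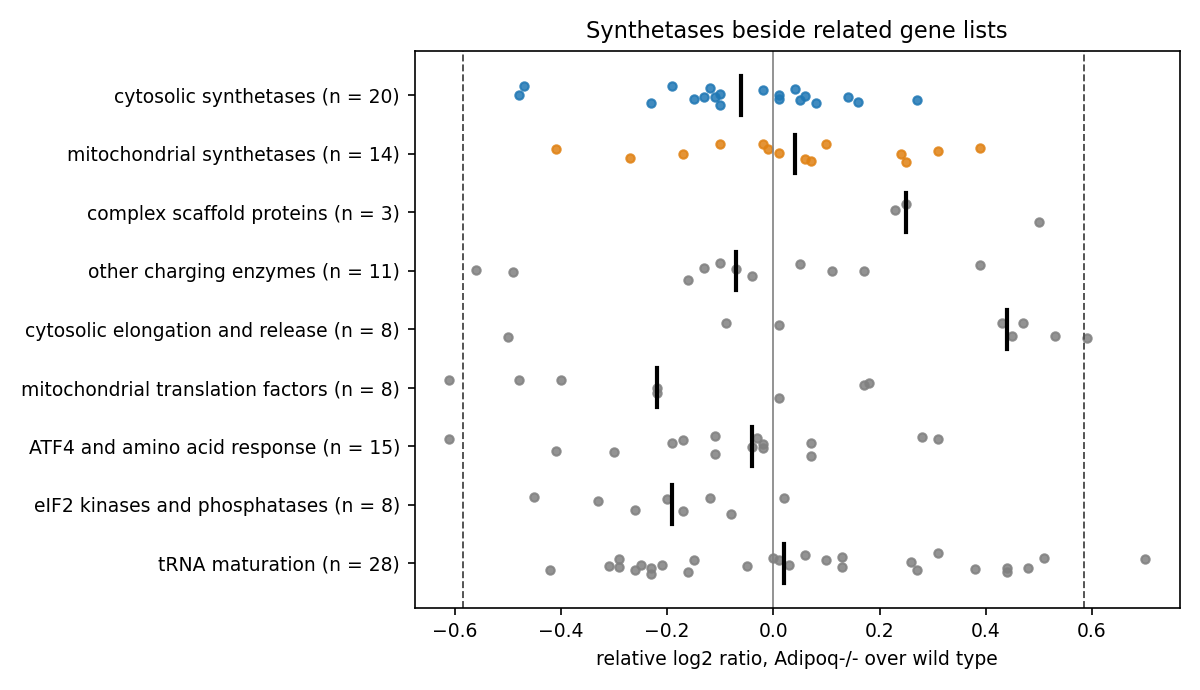
Relative log2 ratios of the synthetases and of related gene lists, 1 point per gene, with the list median as a black bar and dashed lines at 1.5-fold. Both synthetase groups centre near 0 (medians -0.06 and 0.04), cytosolic elongation factors lie to the right (0.44) and mitochondrial translation factors to the left (-0.22).

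The 3 scaffold proteins of the multi-synthetase complex all lay above the all-gene median. Scaling to equal summed FPKM put the median of the list at -0.04 and that of all genes at -0.28. Aimp1 was 25.3 FPKM in the knockout and 23.9 FPKM in the wild-type library (relative log2 ratio 0.23), and Aimp2 8.59 FPKM in KO and 7.93 FPKM in WT (0.25). Eef1e1, which encodes AIMP3, was 14.5 FPKM in the knockout and 11.2 FPKM in the wild-type library (0.50). Their transcripts are short, with a median of 1185 bases, and the median of the list was 0.25 before and 0.10 after length correction. None was 1.5-fold apart, where 9.34% of all genes were.

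Of 12 further genes of charging and its quality control, 11 had a ratio, 7 of them below the all-gene median (list median -0.07). At least 1.5-fold apart were 0 of them, against 9.34% of all genes. Mtfmt, which formylates the initiator methionyl-tRNA of mitochondria, was 2.34 FPKM in KO and 4.21 FPKM in WT (-0.49). The subunits of the amidotransferase that makes mitochondrial glutaminyl-tRNA were near the median, with Pet112l at 13.7 FPKM in the knockout and 17.3 FPKM in the wild-type library (-0.16), Gatc at 7.23 FPKM in KO and 8.98 FPKM in WT (-0.13) and Qrsl1 at 1.96 FPKM in KO and 2.18 FPKM in WT (0.05). The selenocysteine pathway kinase Pstk was 15.1 FPKM in the knockout and 12.6 FPKM in the wild-type library (0.39), and Sepsecs, the next enzyme of that pathway, 9.64 FPKM in KO and 11.4 FPKM in WT (-0.07). Of the others, Tarsl2, a cytosolic threonine enzyme, was 1.35 FPKM in KO and 1.68 FPKM in WT (-0.04), and the editing factor Aarsd1 8.87 FPKM in KO and 10.7 FPKM in WT (-0.10). The D-aminoacyl-tRNA deacylase Dtd1 was 10.3 FPKM in the knockout and 10.2 FPKM in the wild-type library (0.17), and the peptidyl-tRNA hydrolase Ptrh2 11.6 FPKM in KO and 11.9 FPKM in WT (0.11).

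Charged transfer RNA is carried to the ribosome by eEF1A in the cytosol and by Tufm in mitochondria. Of 8 cytosolic elongation and release genes, 6 lay above the all-gene median and 1, the elongation factor kinase Eef2k, was at least 1.5-fold higher, where 6.73% of all genes were. Eef2k stood at 4.39 FPKM in KO and 2.98 FPKM in WT (0.59). Eef1a1 was 4638 FPKM in the knockout and 3769 FPKM in the wild-type library (0.45), and the exchange factor subunit Eef1b2 382 FPKM in KO and 294 FPKM in WT (0.53). Eef1d was 86.8 FPKM in the knockout and 69.3 FPKM in the wild-type library (0.47). At the low end were the release factor genes Gspt1 (15.2 FPKM in the knockout and 24.5 FPKM in the wild-type library, -0.50) and Etf1 (11.0 FPKM in KO and 13.2 FPKM in WT, -0.09), and the translocation factor Eef2 was 197 FPKM in KO and 217 FPKM in WT (0.01). The list median was 0.44. After scaling to equal summed FPKM it was 0.13, where that of all genes was -0.28.

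Of 8 mitochondrial translation factors, 5 lay below the all-gene median and 1, the initiation factor Mtif2, was at least 1.5-fold lower, where 2.61% of all genes were. Mtif2 stood at 11.3 FPKM in the knockout and 19.9 FPKM in the wild-type library (-0.61, and -0.53 after length correction, short of 1.5-fold). The release factor Mtrf1l was 1.04 FPKM in KO and 2.17 FPKM in WT (-0.48), and the ribosome recycling factor Gfm2 10.5 FPKM in KO and 15.9 FPKM in WT (-0.40). The elongation factors were Gfm1 (41.2 FPKM in the knockout and 53.4 FPKM in the wild-type library, -0.22), Tsfm (11.7 FPKM in KO and 15.4 FPKM in WT, -0.22) and Tufm (24.0 FPKM in KO and 26.6 FPKM in WT, 0.01). Mtif3 was 20.6 FPKM in the knockout and 20.3 FPKM in the wild-type library (0.17), and Mtrf1 7.73 FPKM in KO and 7.53 FPKM in WT (0.18). The list median was -0.22, against 0.04 for the mitochondrial synthetases.

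The regulators that respond to uncharged transfer RNA were also examined. Of 28 genes of ATF4 and the amino acid response, 15 had a ratio, 11 of them below the all-gene median, with a list median of -0.04. Atf4 was 49.6 FPKM in the knockout and 56.5 FPKM in the wild-type library (-0.03). The lowest was the glutathione-degrading enzyme Chac1 (0.450 FPKM in the knockout and 1.46 FPKM in the wild-type library, -0.61). Chac1 was the only one of the list past 1.5-fold, where 2.61% of all genes were that much lower. Next came Atf5 (113 FPKM in KO and 167 FPKM in WT, -0.41) and the serine synthesis enzyme Psph (5.0 FPKM in KO and 7.19 FPKM in WT, -0.30). The highest were asparagine synthetase (Asns), at 5.65 FPKM in the knockout and 4.94 FPKM in the wild-type library (0.31), the translation repressor Eif4ebp1 (40.6 FPKM in KO and 37.1 FPKM in WT, 0.28) and the transcription factor Cebpg, a partner of ATF4 (7.54 FPKM in KO and 8.02 FPKM in WT, 0.07). Asns and Chac1, both known ATF4 targets, thus lay at opposite ends of the list, although Chac1 was close to the 1 FPKM minimum.

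The list of kinases and phosphatase subunits acting on eIF2 also held the GCN2 regulators Gcn1l1 and Impact. Of its 8 genes, 7 lay below the all-gene median, with a list median of -0.19, or -0.09 after length correction. Past 1.5-fold in either direction were 0 of them, against 9.34% of all genes. GCN2 (Eif2ak4), the sensor of uncharged transfer RNA, was 1.2 FPKM in the knockout and 1.4 FPKM in the wild-type library (0.02), and its coactivator Gcn1l1 3.87 FPKM in KO and 5.47 FPKM in WT (-0.26). Eif2ak3, encoding the endoplasmic reticulum stress kinase PERK, was 2.50 FPKM in the knockout and 4.32 FPKM in the wild-type library (-0.45), the lowest of the list, and Impact, an inhibitor of GCN2 activation, 1.03 FPKM in KO and 1.84 FPKM in WT (-0.33). At the upper end lay Ppp1r15b (10.9 FPKM in the knockout and 13.0 FPKM in the wild-type library, -0.08) and Ppp1r15a (3.93 FPKM in KO and 4.94 FPKM in WT, -0.12), which encode regulatory subunits of eIF2 phosphatases.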

How the data were processed

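Liver mRNA was sequenced in 1 pooled library per genotype. The authors deposited FPKM, 1 value per gene symbol and library. TopHat and Cuffdiff with builds mm9 and NCBIM37 are named per the submitters' processing notes. The sources used here do not state roles, versions, annotation or row filters. The tables hold 13352 rows, and of the 26 symbols in 2 rows, none of them a member, the row of higher mean was used. Depth is unknown: among 1298 genes above 0 and under 1 FPKM in both libraries, no log2 ratio rounded to 3 decimals was shared by more than 5, and whole reads were not recovered.

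Libraries were grouped by the genotype label. Ratios used a pseudocount of 1 FPKM, a minimum of 1 FPKM in at least 1 library and centring on the all-gene median, and were tested on simulated data. The added 1 FPKM shrinks the ratios of low genes. No p-value was possible. Lengths are the longest coding GENCODE M21 transcript by symbol, used with a running median of 500 genes. Promoters are from RefSeq (GRCm38.p6). Python 3.11.15 and pandas 2.3.3 were used. All members are named, every gene of the short lists, and the 3 highest and 3 lowest of the longer ones, with further genes chosen after their values were seen. Some genes of these lists are not reported here, though the counts and medians of the lists include them. Members and lists were chosen with earlier results of these data known. Adipoq was not analysed here and could not be used to check the labels. Alternatives covered pseudocount, minimum, scaling, length, duplicate rows and fold.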

Additional observations from a re-analysis of the deposited data

How the results depend on the processing

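No paired analysis was possible because each genotype has 1 library, and no library could be left out. Depth is unknown and limits what the low members (Pars2, Wars2, Vars) can show. The causes of the shifts below were not tested, other than those that the scaling itself sets. The cytosolic count 1.5-fold lower, 0 as reported, was 2 as deposited (6.17% of all genes), 2 with equal summed FPKM (12.5%) and 2 when Mup and mt- genes were left out of the sums (7.59%). The mitochondrial count, also 0, was 0, 1 and 1 there. With the limit at a log2 ratio of 0.32 the counts were 2 and 1. Cytosolic median, mitochondrial median and mitochondrial minus cytosolic median, as log2, were -0.06, 0.04 and 0.10 as reported. They were -0.04, 0.05 and 0.09 with a pseudocount of 0.1 FPKM, and -0.05, 0.05 and 0.09 with 0.5. They were -0.07, 0.04 and 0.11 with no minimum, and -0.06, 0.03 and 0.09 with a minimum of 5 FPKM. As deposited they were -0.21, -0.11 and 0.10, with equal sums -0.34, -0.25 and 0.09, without Mup and mt- genes in the sums -0.25, -0.15 and 0.10, and with equal upper quartiles -0.14, -0.05 and 0.09. Length correction gave 0.04, 0.11 and 0.08, so the sign of the cytosolic median depended on it, and that of the mitochondrial median on the scaling. Summing both rows of a symbol changed none of these 5 values. The scalings move all genes together, with all-gene medians of -0.15 as deposited, -0.28 with equal sums, -0.19 without Mup and mt- genes in the sums and -0.09 with equal upper quartiles, so a sign kept or lost under them restates the size of the centred ratio. No member was 1.5-fold higher in any of these settings.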

Other observations

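Transfer RNAs are trimmed, spliced and modified before they are charged. Of 32 genes for these steps, 28 had a ratio, 12 of them below the all-gene median, with a list median of 0.02. The cytosine methyltransferase gene Trdmt1 was the only one past 1.5-fold, at 2.14 FPKM in the knockout and 1.15 FPKM in the wild-type library (relative log2 ratio 0.70). Of all genes, 6.73% were at least 1.5-fold higher. Next to Trdmt1 was the splicing endonuclease subunit Tsen15 (15 FPKM in the knockout and 11.5 FPKM in the wild-type library, 0.51). The lowest were the mitochondrial thiouridylase Trmu (6.39 FPKM in the knockout and 9.97 FPKM in the wild-type library, -0.42), the methyltransferase Trmt5 (2.22 FPKM in KO and 3.44 FPKM in WT, -0.31) and the 3' processing nuclease Elac2 (7.49 FPKM in KO and 10.6 FPKM in WT, -0.29). The interquartile range of this list was 0.51 on the log2 scale, against 0.20 for the synthetases and 0.43 for all genes.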
